A study of Mus musculus with 16 samples.

Results

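The genes described here are 46 mouse genes that copy DNA in S phase or supply the nucleotides for it. They were taken as a fixed list of symbols: the 6 subunits of the origin recognition complex, 3 licensing factors, the 6 subunits of the MCM helicase, 8 genes that activate that helicase, 7 polymerase and primase subunits, the sliding clamp with its 5 loader subunits, the 3 subunits of the single-strand binding protein, 2 enzymes that join Okazaki fragments, and 5 enzymes of nucleotide supply. Each gene was read from 1 probe set, the one with the highest mean over 16 arrays among those that name a single gene. The files give such a probe set for 18193 genes, of which 11451 were bright enough to test. All 46 of the listed genes passed that filter, and each was brighter than the array median on 16 of 16 arrays.

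The arrays measured RNA from mouse embryonic fibroblasts (MEF), connective tissue cells grown from embryos, of 2 genotypes. Wild-type cells (CHOP+/+) and cells without the stress-induced transcription factor CHOP (CHOP-/-, the product of Ddit3) were each harvested untreated or after 8 h with 1 µM MG132, a peptide aldehyde that blocks the proteasome. The untreated plates are labelled as having no treatment, and the sample descriptions add that they received the solvent DMSO for the same 8 h. Each of the 4 groups had 4 plates and 1 array per plate, 16 arrays in all. The labels do not give the number of embryos or cell lines behind each genotype, so genotype and line cannot be told apart, and the p-values measure the spread between plates.

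Before S phase, the origin recognition complex, Cdc6 and Cdt1 load the MCM helicase onto origins as an inactive double ring. Geminin, the product of Gmnn, holds Cdt1 back once replication has begun, and the proteasome removes Cdt1 and geminin protein at different phases of the cycle. The kinase made of Cdc7 and Dbf4, with Cdc45, Mcm10 and the GINS complex, then turns the helicase on, and polymerases, clamp, loader and ligase follow at the fork. Many of these genes are textbook targets of E2F transcription factors, which act at the transition from G1 to S phase.

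The start regions of the genes were searched for short words in RefSeq promoter windows of the GRCm38.p6 assembly, 250 bases before to 50 bases after each annotated start. A window was found for 38 of the 46 genes, with 47 windows in all, and none was given for Gmnn, Mcm4, Gins1, Gins2, Gins4, Prim2, Pole and Rfc2. On both strands the search covered the E2F words TTTCCCGC, TTTCGCGC, TTTGCCGC and TTTGGCGC, the CCAAT box (CCAAT), the CHR word TTTGAA and the composite C/EBP-ATF word TGATGNAA, counting overlapping matches separately. An E2F word was present in 13 of 38 genes, or 34.2%, against 4.92% of 9300 tested genes with a window and 2.6% of all 27025 genes in the table. A CCAAT box was present in 57.9% of the 38 genes, against 43.2% of the tested genes and 41.1% of all genes. Both occurred in 7 genes, or 18.4%, against 2.15% and 1.12%. The CHR word was found in 18.4%, against 14% and 20.2%, and the C/EBP-ATF word in Orc2 and Fen1 alone, 5.26% against 2.66% and 4.51%. These are matches of letters and say nothing of binding.

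Shown here are 8 of the windows, 5′ to 3′ along the gene, with E2F words and CCAAT boxes of either strand in capitals. Cdt1 and Cdc6 stand for licensing, Mcm6 and Mcm7 for the helicase, and Pole2 and Rfc3 for the fork, and each has an E2F word. Tk1 and Rpa3, whose signals moved most among nucleotide supply and single-strand binding, had no such word in the window.
Cdt1 (chr8:122567765-122568064, plus strand): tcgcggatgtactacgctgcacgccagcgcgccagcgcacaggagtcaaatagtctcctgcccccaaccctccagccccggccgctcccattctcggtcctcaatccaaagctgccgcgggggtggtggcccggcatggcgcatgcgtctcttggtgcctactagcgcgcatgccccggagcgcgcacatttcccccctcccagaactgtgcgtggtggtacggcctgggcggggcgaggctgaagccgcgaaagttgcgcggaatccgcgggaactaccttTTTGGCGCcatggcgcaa
Cdc6 (chr11:98907901-98908200, plus strand): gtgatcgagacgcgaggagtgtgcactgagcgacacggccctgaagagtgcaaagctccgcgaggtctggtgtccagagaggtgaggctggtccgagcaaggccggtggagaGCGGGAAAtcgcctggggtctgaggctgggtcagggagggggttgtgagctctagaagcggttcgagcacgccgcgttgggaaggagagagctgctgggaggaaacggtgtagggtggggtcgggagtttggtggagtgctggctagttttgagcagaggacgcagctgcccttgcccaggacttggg
Mcm6 (chr1:128359656-128359955, minus strand): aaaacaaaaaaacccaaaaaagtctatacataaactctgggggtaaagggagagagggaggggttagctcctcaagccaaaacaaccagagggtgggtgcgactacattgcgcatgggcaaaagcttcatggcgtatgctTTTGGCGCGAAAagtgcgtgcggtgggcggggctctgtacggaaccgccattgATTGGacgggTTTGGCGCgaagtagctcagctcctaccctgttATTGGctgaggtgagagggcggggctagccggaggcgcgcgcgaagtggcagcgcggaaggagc
Mcm7 (chr5:138171834-138172133, minus strand): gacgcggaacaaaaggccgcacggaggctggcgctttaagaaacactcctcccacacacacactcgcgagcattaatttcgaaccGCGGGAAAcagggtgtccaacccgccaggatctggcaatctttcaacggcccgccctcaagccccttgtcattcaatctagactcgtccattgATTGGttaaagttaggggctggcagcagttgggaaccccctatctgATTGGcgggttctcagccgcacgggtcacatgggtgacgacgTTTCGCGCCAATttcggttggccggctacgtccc
Pole2 (chr12:69228141-69228440, minus strand): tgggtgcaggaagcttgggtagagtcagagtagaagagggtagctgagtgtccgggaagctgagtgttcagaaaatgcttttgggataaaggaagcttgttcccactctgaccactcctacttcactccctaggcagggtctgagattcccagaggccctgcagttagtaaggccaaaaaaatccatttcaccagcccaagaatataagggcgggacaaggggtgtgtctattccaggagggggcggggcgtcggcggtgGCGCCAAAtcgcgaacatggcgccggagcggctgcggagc
Rfc3 (chr5:151651159-151651458, minus strand): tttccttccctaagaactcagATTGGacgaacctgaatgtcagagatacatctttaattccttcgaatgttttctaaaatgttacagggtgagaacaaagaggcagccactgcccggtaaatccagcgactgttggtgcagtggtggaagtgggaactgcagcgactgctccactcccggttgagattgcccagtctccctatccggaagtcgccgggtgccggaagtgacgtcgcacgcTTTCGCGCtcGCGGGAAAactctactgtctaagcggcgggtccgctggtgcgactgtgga
Tk1 (chr11:117825965-117826264, minus strand): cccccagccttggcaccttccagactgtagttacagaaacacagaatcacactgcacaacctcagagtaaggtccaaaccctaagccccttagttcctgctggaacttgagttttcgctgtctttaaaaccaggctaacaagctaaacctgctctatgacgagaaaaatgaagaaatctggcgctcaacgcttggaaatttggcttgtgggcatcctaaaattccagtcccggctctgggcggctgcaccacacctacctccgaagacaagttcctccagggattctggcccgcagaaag
Rpa3 (chr6:8259092-8259391, minus strand): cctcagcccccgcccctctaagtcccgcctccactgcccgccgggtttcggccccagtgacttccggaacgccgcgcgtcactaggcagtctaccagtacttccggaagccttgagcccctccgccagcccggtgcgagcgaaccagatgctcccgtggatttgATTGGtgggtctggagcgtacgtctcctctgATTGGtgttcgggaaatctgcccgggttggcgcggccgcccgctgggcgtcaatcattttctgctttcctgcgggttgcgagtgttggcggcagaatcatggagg
Mcm6 held 3 E2F words, of which 2 overlap on opposite strands and appear as 1 run of capitals, and Mcm7 held 2, the later of which overlaps a CCAAT box. Rfc3 held 2 words, 1 just before its start and 1 at it. Cdt1, Cdc6 and Pole2 held 1 each.

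**Figure D1:**
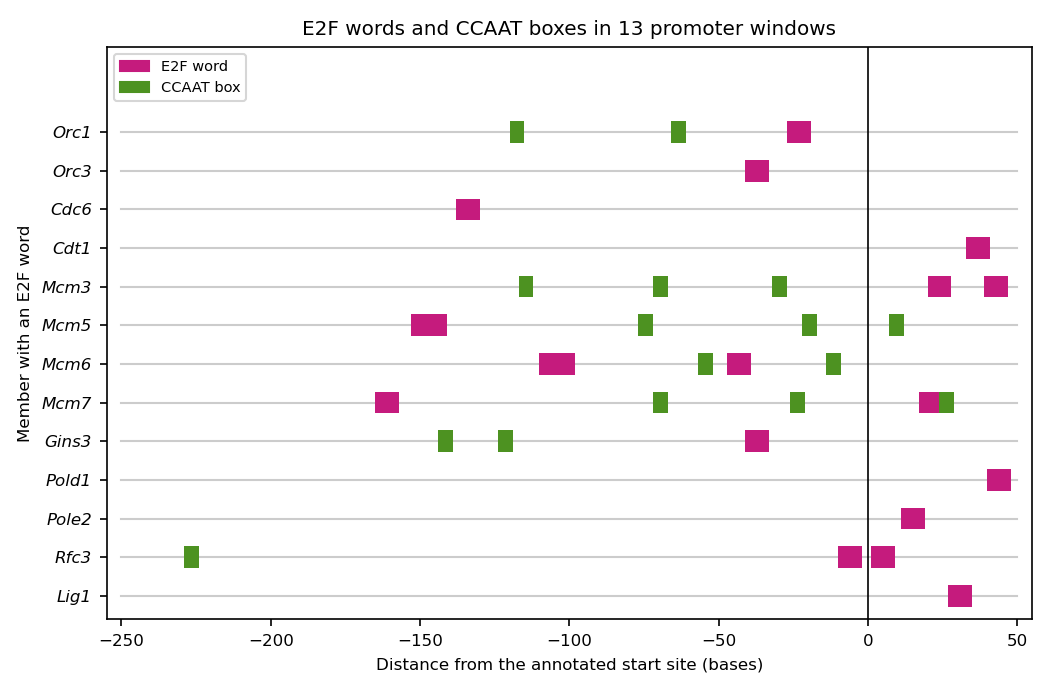
Positions of E2F words (magenta) and CCAAT boxes (green) in the promoter windows of the 13 genes with an E2F word, 1 window per gene, with distance from the annotated start site in bases on the horizontal axis. Mcm3, Mcm5, Mcm6, Mcm7 and Rfc3 carry more than 1 E2F word, and 7 of the 13 also carry a CCAAT box.

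Signals are the authors' MAS5 values, scaled so that the trimmed mean was 1000 on each array, and a level on 1 probe set cannot be set against a level on another. The median signal was 90.11 to 113.4 over the arrays, and arrays of a group correlated at 0.9851 to 0.9916. Ddit3 read 1017 ± 101 (SD, n = 4) in wild-type cells without and 7724 ± 587 with MG132, against 368 ± 24.0 and 396 ± 38.9 in CHOP-/- cells, so the arrays match their genotype labels. The deleted stretch of the gene is not stated in the labels. Summed over 10 fibroblast markers, signal was 112586 to 130651 per array in untreated wild-type, 111998 to 121621 in treated wild-type, 115763 to 129810 in untreated CHOP-/- and 97317 to 102501 in treated CHOP-/- cells. Lum was near background in every group, and Dcn in wild-type cells. These sums hide large differences of single markers. Between untreated genotypes, 4 of the 9 tested fibroblast markers were called higher in CHOP-/- cells and 3 lower, from log2 -4.19 to 4.55. Those shares were 44.4% and 33.3%, against 28.6% and 26.9% of all tested genes. The sum over 5 macrophage and leukocyte markers was 736 to 880 and 761 to 1012 in untreated and treated wild-type cells and 1401 to 1668 and 2105 to 2354 in CHOP-/- cells, with Ptprc near background throughout. In CHOP-/- cells most of this sum came from 1 gene, with means of 1054 untreated and 1736 treated. Of 3 tested markers, 1 was called higher and none lower in untreated CHOP-/- than wild-type cells (33.3% and 0%). With MG132, 1 was higher and 1 lower (33.3% each, against 30.7% and 28.1% of all tested genes), from log2 -0.78 to 2.69. The sum over 5 epithelial markers was 241 to 435 and 769 to 1138 in wild-type and 226 to 421 and 448 to 547 in CHOP-/- cells, and that over 4 endothelial markers stayed between 85 and 402. The part of these differences in the results on replication genes was not tested.

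With MG132, the replication genes changed in both directions in wild-type cells, as did the tested genes as a whole. Tk1, the S-phase thymidine kinase, fell 4.03-fold, Rpa3 2.04-fold and Pole2 1.86-fold, while Orc4 rose 2.47-fold, Gins3 1.94-fold and Orc2 1.75-fold. By limma with Benjamini-Hochberg adjustment over all tested genes, 16 of the 46 were higher (34.8%, against 27.2% of all tested genes), 17 were lower (37%, against 36.9%) and 13 did not pass. The median log2 difference of the 46 was 0.017, against -0.07 for all tested genes. Of all tested genes, 64.1% were called in either direction. Treated and untreated arrays did not overlap for 29 of the 33 genes called (87.9%), against 86.2% of all genes called. A difference of at least 0.5 on the log2 scale was seen in 6 of the genes called higher and 5 of those called lower. When each array was centred on the median of the tested genes, the median of all tested genes moved from -0.07 to 0.13 and the split became 28 higher and 10 lower. Among all 11451 tested genes, 4582 were then higher and 2860 lower, against 3109 and 4231 at the deposited scale. The small differences therefore depend on the scale. In whole cultures, fewer cells in S phase and less RNA per cell cannot be told apart.

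In CHOP-/- cells MG132 lowered Tk1 2.4-fold, Rpa3 2.04-fold and Rfc5 1.62-fold, and raised Orc4 2.09-fold, Mcm10 1.78-fold and Cdt1 1.44-fold. Here 19 of 46 genes were higher (41.3%, against 25.7% of all tested genes) and 11 lower (23.9%, against 36.8%), with 16 not past the threshold. The median log2 difference was 0.074, against -0.074 for all tested genes. Arrays did not overlap for 26 of the 30 genes called (86.7%), against 89.4% of all genes called, where 62.5% of all tested genes were called. Centring on the tested genes gave 24 higher and 7 lower, and quantile normalisation 16 higher and 13 lower. Among all 11451 tested genes these scalings gave 3995 higher and 3167 lower, and 3168 and 3902, against 2944 and 4210 at the deposited scale. Across the genotypes, 13 genes were higher in both, 9 were lower in both and 7 were called in neither. Joint calls were not counted over all tested genes, of which 64.1% were called in wild-type and 62.5% in CHOP-/- cells. The joint counts are therefore not read as a trait of these genes. Pola2 and Dbf4 were lower in wild-type and higher in CHOP-/- cells. For Dbf4 at least 1 of these opposite calls was lost under each of the 3 other scalings.

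**Figure D2:**
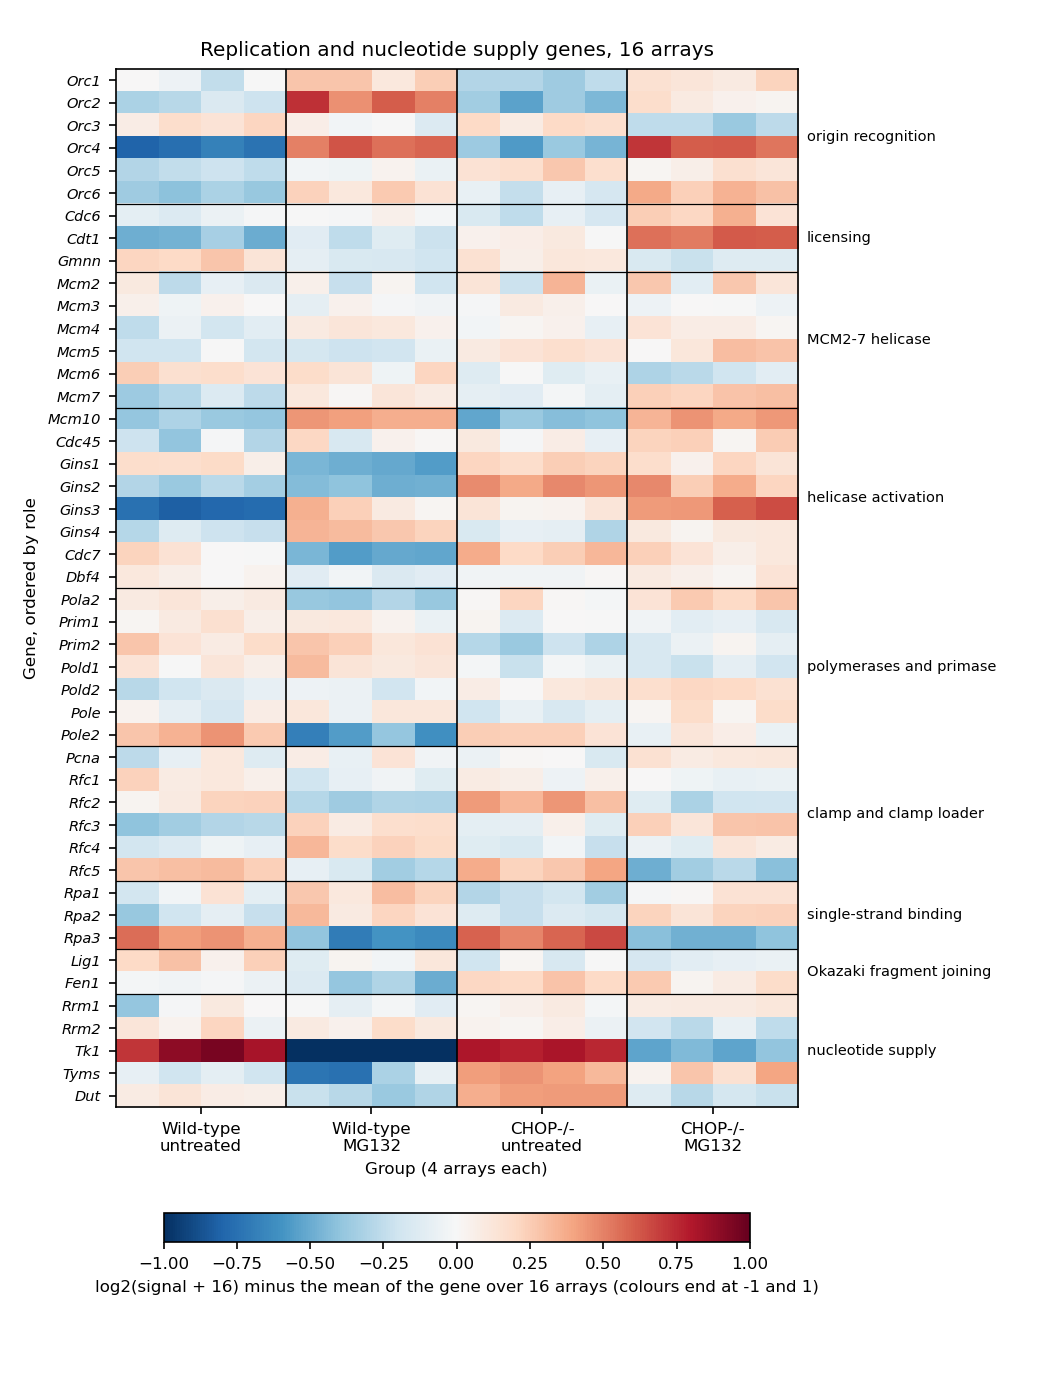
Each row is 1 of the 46 genes in order of role and each column 1 array, with log2(signal + 16) shown as the difference from the mean of the gene over 16 arrays, red above and blue below. Tk1 and Rpa3 are red in all untreated and blue in all treated columns, Orc4 and Mcm10 the reverse, and the MCM2-7 rows stay pale.

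**Figure D3:**
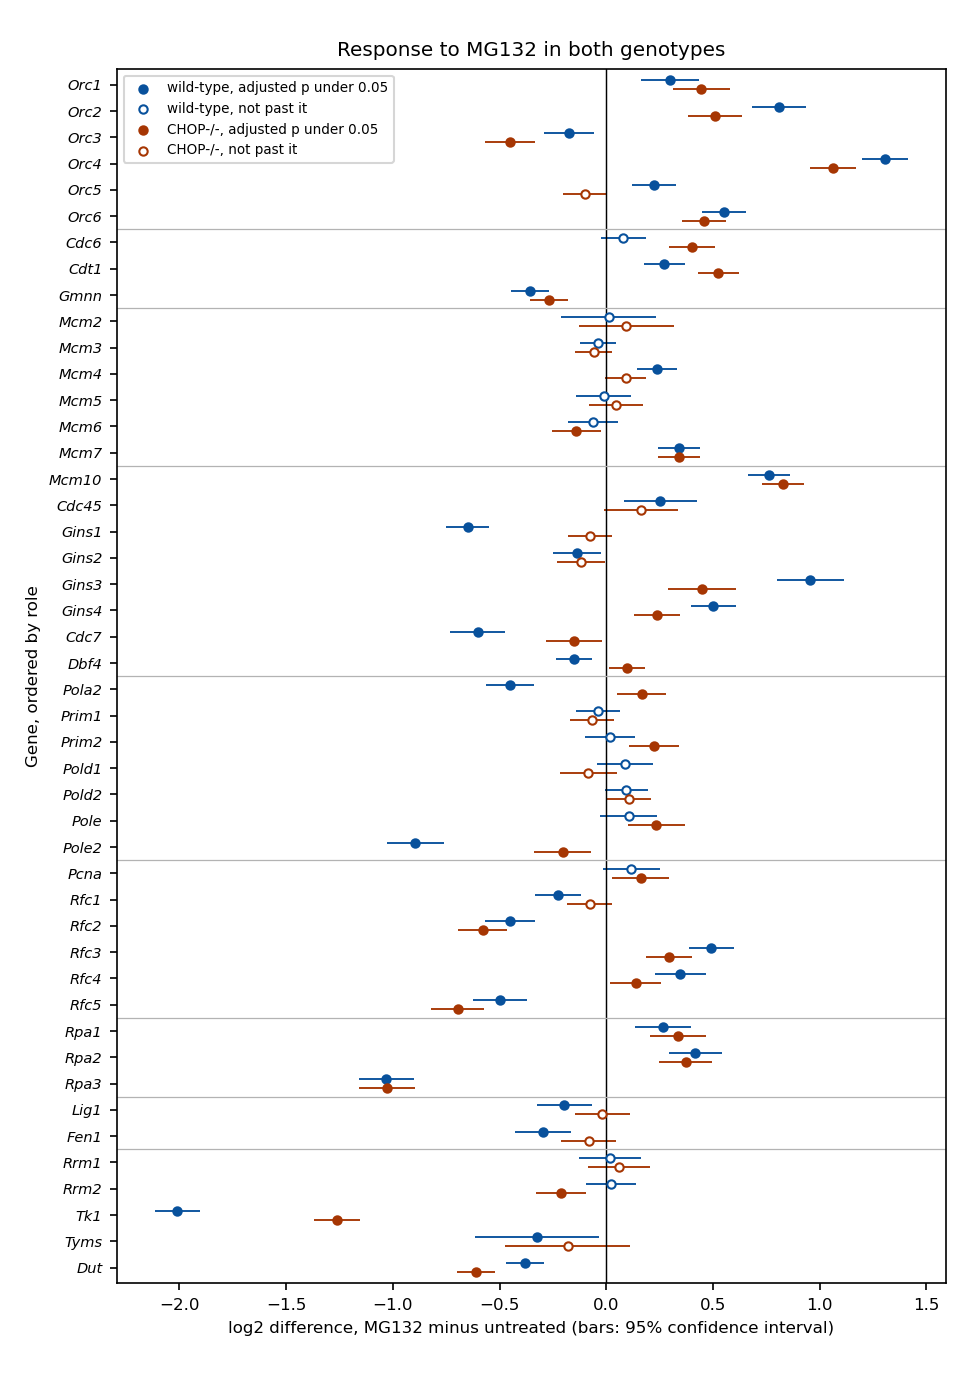
Log2 difference of MG132-treated minus untreated cells for each gene, in wild-type (blue) and CHOP-/- cells (brown), with 95% confidence intervals and filled points where the adjusted p was under 0.05. Most pairs lie on the same side of 0, and Tk1, Pole2, Pola2, Gins1 and Cdc7 lie further left in wild-type cells. Small differences can change side under another scaling, as for Orc3, Gins2, Dbf4 and Lig1 in wild-type and Mcm6 and Pcna in CHOP-/- cells.

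The origin recognition complex marks the sites where replication can start. In MG132-treated wild-type cells 5 of its 6 subunits were higher and 1 lower (83.3% and 16.7%, against 27.2% and 36.9% of all tested genes). In CHOP-/- cells 4 were higher and 1 lower (66.7% and 16.7%, against 25.7% and 36.8%). Shares within this and the later role groups rest on 2 to 8 genes and were not tested. Orc4 moved most, Orc2 and Orc6 followed, and Orc3 went the other way. Orc4 read 4028, 4167, 4397 and 4218 in untreated and 9995, 10860, 10300 and 10530 in MG132-treated wild-type cells, and 5450, 4757, 5438 and 5079 in untreated and 11580, 10730, 10750 and 10200 in MG132-treated CHOP-/- cells. Every treated array lay far above every untreated array, and treated arrays of the genotypes overlapped. The log2 difference was 1.31 ± 0.051 (SE) in wild-type and 1.06 ± 0.051 in CHOP-/- cells, with limma adjusted p of 1.75e-14 and 5.31e-13. Orc2 read 3487, 3579, 3935 and 3752 in untreated and 7196, 5967, 6627 and 6158 in MG132-treated wild-type cells, and 3399, 2988, 3386 and 3167 in untreated and 4905, 4623, 4484 and 4429 in MG132-treated CHOP-/- cells. Treated arrays lay above untreated arrays in both genotypes without overlap, and the treated wild-type arrays were the highest of the 16. The log2 rise was 0.81 ± 0.061 (adjusted p = 4.08e-10) in wild-type and 0.51 ± 0.061 (adjusted p = 4.03e-07) in CHOP-/- cells, and with MG132 the CHOP-/- cells were lower by limma (log2 -0.49 ± 0.061, adjusted p = 8.62e-07).

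Orc6 read 6337, 6106, 6533 and 6240 in untreated and 9545, 8740, 9748 and 8985 in MG132-treated wild-type cells, and 7728, 6868, 7681 and 7236 in untreated and 10590, 9606, 10360 and 9977 in MG132-treated CHOP-/- cells. Both genotypes separated by treatment with no overlap, with log2 rises of 0.55 ± 0.049 and 0.46 ± 0.049 (adjusted p 4.83e-09 and 8.53e-08). Orc5 read 1999, 2058, 2112 and 2054 in untreated and 2396, 2375, 2514 and 2333 in MG132-treated wild-type cells, and 2710, 2755, 2950 and 2747 in untreated and 2481, 2543, 2735 and 2656 in MG132-treated CHOP-/- cells. Untreated wild-type arrays were the lowest 4, and untreated CHOP-/- arrays lay wholly above them, at log2 0.44 ± 0.049 (adjusted p = 2.07e-07). The rise with MG132 was called in wild-type cells (log2 0.22 ± 0.049, adjusted p = 4.61e-04; 0.17 and not called after centring on all probe sets) and not in CHOP-/- cells (log2 -0.10 ± 0.049, adjusted p = 0.0842), and the responses differed by -0.32 ± 0.069 (adjusted p = 0.0015). Orc3 read 2241, 2406, 2345 and 2483 in untreated and 2237, 2095, 2132 and 1936 in MG132-treated wild-type cells, and 2452, 2253, 2454 and 2403 in untreated and 1783, 1786, 1643 and 1772 in MG132-treated CHOP-/- cells. The treated CHOP-/- arrays were the lowest 4 of the 16, and neither genotype overlapped between treatments. The fall was -0.45 ± 0.056 in CHOP-/- (adjusted p = 6.37e-07) and -0.17 ± 0.056 in wild-type cells (adjusted p = 0.0103), where centring on the tested genes turned it to 0.03, no longer called. Orc1 had group means from 1152 to 1664 and rose by 0.30 in wild-type and 0.45 in CHOP-/- cells. With MG132 the other probe sets of Orc2, Orc3 and Orc4 gave differences of the same sign as the ones used in both genotypes. Between treated genotypes the probe sets of Orc4 disagreed, with 0.053 for the one used and -0.40, -0.094 and 0.16 for the others.

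Among the licensing genes, Cdt1, which delivers the helicase, rose in both genotypes and was higher in CHOP-/- cells at each treatment, and Gmnn, its inhibitor, fell in both. Cdt1 read 10800, 10900, 12050 and 10760 in untreated and 13990, 12730, 13930 and 13070 in MG132-treated wild-type cells, and 15600, 15860, 16220 and 15100 in untreated and 22260, 21740, 23200 and 23100 in MG132-treated CHOP-/- cells. The 4 groups formed a ladder in which no 2 overlapped, from untreated wild-type at the bottom to treated CHOP-/- cells at the top. MG132 raised Cdt1 by 0.27 ± 0.046 in wild-type (adjusted p = 3.15e-05) and 0.52 ± 0.046 in CHOP-/- cells (adjusted p = 4.63e-09), and CHOP-/- cells exceeded wild-type by 0.50 ± 0.046 untreated (adjusted p = 1.34e-08) and 0.75 ± 0.046 treated (adjusted p = 2.23e-11). The difference between responses, 0.25 ± 0.065 (adjusted p = 0.00624), was 0.19 and not called after centring on the tested genes, and averaging in a probe set at background took the wild-type rise to 0.14 (adjusted p = 0.0635). Gmnn read 8370, 8271, 8756 and 7882 in untreated and 6769, 6482, 6459 and 6263 in MG132-treated wild-type cells, and 8027, 7509, 7810 and 7756 in untreated and 6473, 6164, 6585 and 6585 in MG132-treated CHOP-/- cells. All treated arrays lay below all untreated arrays of their genotype, with log2 differences of -0.36 ± 0.043 and -0.27 ± 0.043 (adjusted p 3.95e-07 and 1.70e-05), and the genotypes differed by -0.10 untreated (adjusted p = 0.0637). Cdc6 read 3906, 3809, 4015 and 4161 in untreated and 4167, 4161, 4336 and 4136 in MG132-treated wild-type cells, and 3765, 3511, 3962 and 3723 in untreated and 4980, 4828, 5373 and 4619 in MG132-treated CHOP-/- cells. Cdc6, the ATPase that loads the ring with Cdt1, stood apart in treated CHOP-/- cells, whose arrays were the highest 4 of 16. It rose by 0.40 ± 0.051 there (adjusted p = 9.12e-07) and differed by an uncalled 0.08 ± 0.051 in wild-type cells, with a difference between responses of 0.32 ± 0.073 (adjusted p = 0.00228).

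The MCM2-7 ring is the motor that unwinds DNA. With MG132, 2 of 6 subunits were higher and none lower in wild-type cells (33.3% and 0%, against 27.2% and 36.9% of all tested genes). In CHOP-/- cells 1 was higher and 1 lower (16.7% each, against 25.7% and 36.8%). These counts depend on the scaling, as do those of all tested genes. Centring on the tested genes gave 5 higher in wild-type and 3 in CHOP-/- cells, with none lower. Quantile normalisation gave 2 higher and 2 lower in wild-type cells, and 1 higher and 2 lower in CHOP-/- cells. The median of the 6 was -4e-04 in wild-type and 0.068 in CHOP-/- cells. Mcm7 read 19240, 20370, 22630 and 20670 in untreated and 26770, 24990, 26950 and 26260 in MG132-treated wild-type cells, and 23360, 22950, 24540 and 23160 in untreated and 29280, 28820, 30300 and 30570 in MG132-treated CHOP-/- cells. Treated arrays were above untreated arrays in both genotypes without overlap, by 0.34 ± 0.047 and 0.34 ± 0.047 (adjusted p 1.97e-06 and 2.42e-06), and all 4 probe sets of the gene rose. Mcm4 read 12910, 14770, 13570 and 14300 in untreated and 16400, 16710, 16530 and 15830 in MG132-treated wild-type cells, and 15070, 15610, 15830 and 14540 in untreated and 16950, 16240, 16220 and 15600 in MG132-treated CHOP-/- cells. Treated and untreated arrays separated in wild-type cells and overlapped in CHOP-/- cells, with a rise of 0.24 ± 0.046 (adjusted p = 1.18e-04) against an uncalled 0.091 ± 0.046 in CHOP-/- cells, and the difference of -0.15 ± 0.065 did not pass (adjusted p = 0.0957). Mcm6 read 15780, 14890, 15030 and 14620 in untreated and 15080, 14510, 12880 and 15440 in MG132-treated wild-type cells, and 12180, 13280, 12250 and 12650 in untreated and 10750, 11040, 11580 and 12380 in MG132-treated CHOP-/- cells. CHOP-/- arrays were all below wild-type arrays of the same treatment, with genotype differences of -0.26 ± 0.056 and -0.34 ± 0.056 (adjusted p 4.83e-04 and 2.60e-05), neither called when all probe sets of Mcm6 were averaged (-0.21 and -0.25). Its small fall in treated CHOP-/- cells (-0.14 ± 0.056, adjusted p = 0.0347) was lost without either of replicates 2 and 4 of the untreated or 1 and 2 of the treated arrays (-0.11 to -0.14, adjusted p 0.0645 to 0.116), and was 0.0052 after centring on the tested genes. Mcm5 read 15090, 15050, 17250 and 15220 in untreated and 15300, 14970, 15150 and 16580 in MG132-treated wild-type cells, and 18400, 19020, 19480 and 19050 in untreated and 17330, 18780, 21410 and 21110 in MG132-treated CHOP-/- cells. Here CHOP-/- arrays lay above wild-type arrays at each treatment, by 0.28 ± 0.061 and 0.34 ± 0.061 (adjusted p 5.85e-04 and 7.69e-05). Mcm2 and Mcm3 passed in no comparison, with MG132 differences from -0.059 to 0.093 and 95% confidence intervals of -0.21 to 0.23 and -0.13 to 0.32 for Mcm2 and -0.12 to 0.048 and -0.14 to 0.027 for Mcm3.

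The genes that activate the helicase split evenly in wild-type cells. There 4 of 8 were higher and 4 lower (50% each, against 27.2% and 36.9% of all tested genes). In CHOP-/- cells 4 were higher and 1 lower (50% and 12.5%, against 25.7% and 36.8%). After centring on the tested genes the counts were 4 and 2 in wild-type and 5 and 0 in CHOP-/- cells. Mcm10, a scaffold that starts unwinding, rose in both genotypes, to nearly the same level on the probe set used. Mcm10 read 2389, 2515, 2406 and 2383 in untreated and 4253, 4166, 4017 and 4029 in MG132-treated wild-type cells, and 2172, 2416, 2324 and 2362 in untreated and 3951, 4262, 4074 and 4221 in MG132-treated CHOP-/- cells. The 8 treated arrays lay wholly above the 8 untreated arrays, at log2 0.76 ± 0.047 and 0.83 ± 0.047 (adjusted p 1.87e-11 and 6.00e-12), and the responses differed by 0.068 with a 95% confidence interval of -0.071 to 0.21. The other probe sets of Mcm10 rose less in CHOP-/- than in wild-type cells. The one above the median on all 16 arrays gave 1.07 in wild-type and 0.73 in CHOP-/- cells, with -0.40 between treated genotypes. A dimmer one gave 0.66 and 0.21. Cdc7, the catalytic subunit of the origin-firing kinase, fell mainly in wild-type cells. Cdc7 read 2065, 1955, 1778 and 1762 in untreated and 1283, 1194, 1239 and 1229 in MG132-treated wild-type cells, and 2289, 2036, 2098 and 2231 in untreated and 2094, 1945, 1840 and 1909 in MG132-treated CHOP-/- cells. The treated wild-type arrays were the lowest 4 and overlapped no other group. Its fall was -0.60 ± 0.063 in wild-type (adjusted p = 4.44e-08) and -0.15 ± 0.063 in CHOP-/- cells (adjusted p = 0.042), the latter lost under all 3 other scalings, and the responses differed by 0.45 ± 0.089 (adjusted p = 6.91e-04). Dbf4, its regulatory subunit, ranged over group means from 11040 to 12450 and differed by -0.15 in wild-type and 0.10 in CHOP-/- cells, the former turning to 0.054 after centring on the tested genes and the latter to 0.031, no longer called, after quantile normalisation. Cdc45, which travels with the helicase, rose by 0.25 in wild-type cells and differed by an uncalled 0.16 in CHOP-/- cells. Its responses differed by -0.089, which did not pass (adjusted p = 0.619), and the wild-type call was lost after centring on all probe sets (0.20).

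The 4 subunits of GINS, a ring that joins Cdc45 to the helicase, did not move together. Gins1 read 3465, 3444, 3494 and 3185 in untreated and 2224, 2183, 2148 and 2079 in MG132-treated wild-type cells, and 3570, 3473, 3644 and 3573 in untreated and 3464, 3152, 3565 and 3360 in MG132-treated CHOP-/- cells. Treated wild-type arrays were again the lowest 4, with the other 3 groups between 3152 and 3644. The fall was -0.65 ± 0.049 in wild-type (adjusted p = 3.76e-10) against an uncalled -0.075 ± 0.049 in CHOP-/- cells, a difference of 0.57 ± 0.069 (adjusted p = 4.24e-06). Gins3 read 640.7, 606.8, 620.7 and 626.8 in untreated and 1386, 1277, 1156 and 1100 in MG132-treated wild-type cells, and 1188, 1101, 1111 and 1177 in untreated and 1462, 1464, 1644 and 1713 in MG132-treated CHOP-/- cells. Untreated wild-type arrays were the lowest 4, no 2 groups overlapped except treated wild-type with untreated CHOP-/- arrays, and the rise was 0.96 ± 0.075 and 0.45 ± 0.075 (adjusted p 7.69e-10 and 2.98e-05). Untreated CHOP-/- cells exceeded wild-type by 0.86 ± 0.075 (adjusted p = 5.82e-09), and the responses differed by -0.51 ± 0.11 (adjusted p = 0.0013). Gins4 read 5861, 6547, 6204 and 6109 in untreated and 9088, 8941, 8646 and 8345 in MG132-treated wild-type cells, and 6441, 6759, 6728 and 5796 in untreated and 7647, 7312, 7647 and 7694 in MG132-treated CHOP-/- cells. Treatment separated both genotypes, by 0.50 ± 0.051 and 0.24 ± 0.051 (adjusted p 3.11e-08 and 3.87e-04), and the treated wild-type arrays were the highest. Gins2 read 3260, 3080, 3314 and 3152 in untreated and 2950, 3007, 2831 and 2847 in MG132-treated wild-type cells, and 5550, 5189, 5561 and 5428 in untreated and 5564, 4730, 5153 and 4626 in MG132-treated CHOP-/- cells. The 8 CHOP-/- arrays lay above the 8 wild-type arrays, by 0.76 ± 0.054 untreated and 0.78 ± 0.054 treated (adjusted p 2.20e-10 and 1.41e-10), while MG132 moved it by -0.14 and -0.12, the first called lower and turned to 0.066 after centring on the tested genes.

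**Figure D4:**
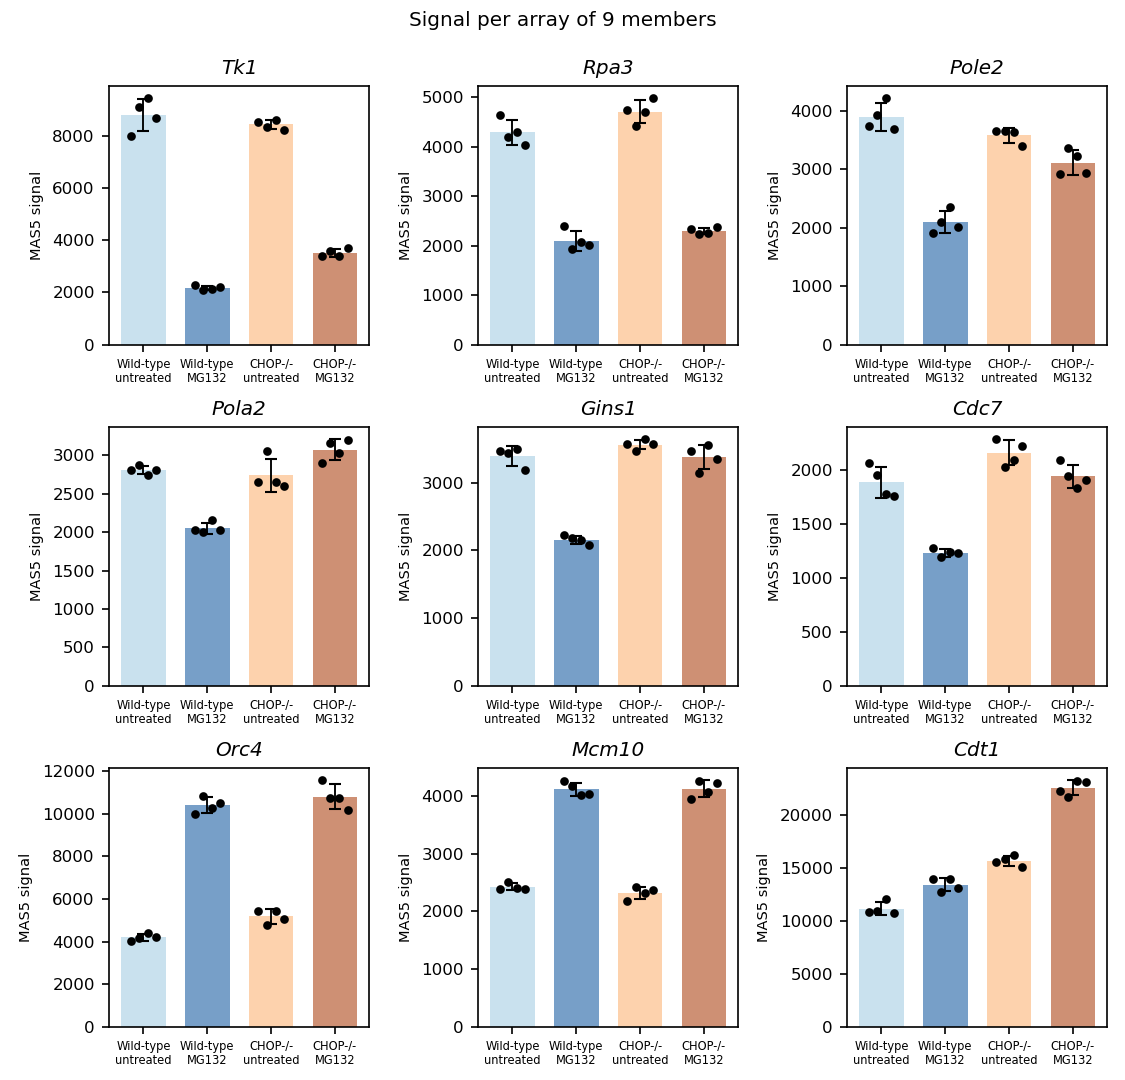
MAS5 signal of 9 genes on each array (points), with the group mean (bar from 0) and SD (whisker), 4 arrays per group. Tk1 and Rpa3 fall with MG132 in both genotypes, Pole2, Pola2, Gins1 and Cdc7 are lowest in treated wild-type cells, Orc4 and Mcm10 rise in both, and Cdt1 steps up from group to group.

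Of the 7 polymerase and primase subunits, none was higher and 2 were lower in MG132-treated wild-type cells. In CHOP-/- cells 3 were higher and 1 lower. The shares were 0% and 28.6%, and 42.9% and 14.3%, against 27.2% and 36.9%, and 25.7% and 36.8%, of all tested genes. Centring on the tested genes called the other 5 subunits higher in wild-type cells (0.16 to 0.31), for 5 higher and 2 lower, and gave 4 higher and 0 lower in CHOP-/- cells. Quantile normalisation called Prim1 lower in CHOP-/- cells (-0.13). The 2 that fell were Pole2 and Pola2, accessory subunits of the leading-strand polymerase epsilon and of the primer-making polymerase alpha. Pole2 read 3737, 3932, 4209 and 3687 in untreated and 1911, 2090, 2346 and 2012 in MG132-treated wild-type cells, and 3656, 3644, 3635 and 3391 in untreated and 2922, 3353, 3224 and 2939 in MG132-treated CHOP-/- cells. Treated wild-type arrays were the lowest 4 and lay well below the treated CHOP-/- arrays, which in turn lay below the untreated CHOP-/- arrays. Pole2 fell, with log2 differences of -0.89 ± 0.065 in wild-type (adjusted p = 2.02e-10) and -0.20 ± 0.065 in CHOP-/- cells (adjusted p = 0.00932), a difference of 0.69 ± 0.091 (adjusted p = 1.29e-05). The CHOP-/- fall was lost after either form of median centring. Pola2 read 2813, 2873, 2747 and 2810 in untreated and 2026, 1999, 2154 and 2026 in MG132-treated wild-type cells, and 2655, 3056, 2653 and 2598 in untreated and 2900, 3165, 3033 and 3195 in MG132-treated CHOP-/- cells. The treated wild-type arrays did not overlap any other group, and the treated CHOP-/- arrays reached the highest values. The wild-type log2 difference was -0.45 ± 0.055 (adjusted p = 3.97e-07), the CHOP-/- difference 0.17 ± 0.055 (adjusted p = 0.012), and the 2 differed by 0.62 ± 0.077 (adjusted p = 6.43e-06). Averaging in 2 probe sets of Pola2 near background left -0.36 in wild-type cells (adjusted p = 0.141) and 0.33 between genotypes (adjusted p = 0.449).

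Prim2 read 4184, 3791, 3651 and 3904 in untreated and 4165, 4052, 3719 and 3797 in MG132-treated wild-type cells, and 2819, 2663, 2981 and 2780 in untreated and 3085, 3299, 3515 and 3228 in MG132-treated CHOP-/- cells. Prim2, the large primase subunit, was lower on every CHOP-/- array than on every wild-type array, at log2 -0.46 ± 0.056 untreated (adjusted p = 6.44e-07) and -0.26 ± 0.056 treated (adjusted p = 4.91e-04). It rose by 0.22 ± 0.056 with MG132 in CHOP-/- cells (adjusted p = 0.00187). Averaging all its probe sets ended the calls of the rise (0.027) and of the untreated difference (-0.29). Pold2 read 4809, 5059, 5263 and 5496 in untreated and 5631, 5602, 5090 and 5701 in MG132-treated wild-type cells, and 6125, 5837, 6255 and 6361 in untreated and 6563, 6719, 6697 and 6483 in MG132-treated CHOP-/- cells. CHOP-/- arrays of this polymerase delta subunit lay above the wild-type arrays of the same treatment, at 0.25 ± 0.049 and 0.27 ± 0.049 (adjusted p 1.76e-04 and 9.42e-05). Pole read 2816, 2581, 2438 and 2894 in untreated and 2962, 2633, 2974 and 2962 in MG132-treated wild-type cells, and 2385, 2603, 2450 and 2561 in untreated and 2786, 3114, 2775 and 3112 in MG132-treated CHOP-/- cells. Pole, the catalytic subunit of epsilon, separated by treatment in CHOP-/- cells (0.23 ± 0.063, adjusted p = 0.00301) and overlapped in wild-type cells (0.10 ± 0.063, adjusted p = 0.157), a difference of 0.13 that did not pass (adjusted p = 0.306). Prim1, the catalytic primase, and Pold1, the catalytic subunit of delta, were not called with MG132 in either genotype at the deposited scale (log2 -0.084 to 0.089), and both were lower in treated CHOP-/- than in treated wild-type cells, at log2 -0.14 and -0.33.

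The clamp Pcna, a ring that holds polymerases on DNA, differed by 0.12 in wild-type (adjusted p = 0.115) and 0.16 in CHOP-/- cells (adjusted p = 0.0329), values that quantile normalisation turned to -0.076 and -0.015. Its loader split by subunit in both genotypes at the deposited scale, with Rfc3 and Rfc4 up and Rfc2 and Rfc5 down. Rfc3 read 4466, 4628, 4801 and 4874 in untreated and 6934, 6227, 6634 and 6645 in MG132-treated wild-type cells, and 5499, 5542, 6120 and 5412 in untreated and 6963, 6419, 7130 and 7177 in MG132-treated CHOP-/- cells. Treated arrays stood above untreated arrays without overlap, by 0.49 ± 0.051 and 0.29 ± 0.051 (adjusted p 4.77e-08 and 4.59e-05), and untreated CHOP-/- cells exceeded wild-type by 0.26 ± 0.051 (adjusted p = 1.85e-04). Rfc4 read 6872, 7116, 7573 and 7394 in untreated and 9858, 8863, 9179 and 8923 in MG132-treated wild-type cells, and 7180, 7037, 7646 and 6663 in untreated and 7493, 7191, 8507 and 8253 in MG132-treated CHOP-/- cells. The wild-type arrays separated and the CHOP-/- arrays overlapped, with rises of 0.35 ± 0.057 in wild-type and 0.14 ± 0.057 in CHOP-/- cells (adjusted p 2.27e-05 and 0.0413). In CHOP-/- cells the rise of Rfc4 was 0.11 and not called after quantile normalisation, and its other probe set gave 0.06. Rfc5 read 6635, 6752, 6806 and 6461 in untreated and 5178, 4920, 4292 and 4500 in MG132-treated wild-type cells, and 7072, 6398, 6612 and 7210 in untreated and 3893, 4300, 4531 and 4098 in MG132-treated CHOP-/- cells. All treated arrays were below all untreated ones, with falls of -0.50 ± 0.06 and -0.70 ± 0.06 (adjusted p 3.54e-07 and 3.23e-09). Rfc2 read 3876, 4055, 4447 and 4480 in untreated and 3131, 2977, 3095 and 3081 in MG132-treated wild-type cells, and 5118, 4790, 5172 and 4703 in untreated and 3511, 3053, 3320 and 3336 in MG132-treated CHOP-/- cells. This subunit too separated fully by treatment, at -0.45 ± 0.056 and -0.58 ± 0.056 (adjusted p 4.99e-07 and 1.64e-08), and its other 2 probe sets fell as well. Rfc1, the large subunit, differed by -0.23 in wild-type cells, where it was called lower but not after centring on the tested genes, and by an uncalled -0.078 in CHOP-/- cells, a difference of 0.15 that did not pass (adjusted p = 0.139).

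Replication protein A coats single-stranded DNA as a trimer, and its smallest subunit moved against the other two. Rpa3 read 4634, 4200, 4299 and 4027 in untreated and 2388, 1923, 2066 and 2008 in MG132-treated wild-type cells, and 4740, 4415, 4696 and 4975 in untreated and 2339, 2245, 2247 and 2368 in MG132-treated CHOP-/- cells. The 8 treated arrays, from 1923 to 2388, lay below the 8 untreated arrays, from 4027 to 4975. The log2 difference was -1.03 ± 0.062 in wild-type and -1.03 ± 0.062 in CHOP-/- cells (adjusted p 1.38e-11 and 1.71e-11), and the responses differed by 0.0034 (95% confidence interval -0.18 to 0.19). Rpa2 read 3587, 4083, 4384 and 3981 in untreated and 5869, 4978, 5417 and 5157 in MG132-treated wild-type cells, and 4268, 3978, 4254 and 4136 in untreated and 5472, 5125, 5461 and 5501 in MG132-treated CHOP-/- cells. Treated arrays were above untreated arrays in each genotype, by 0.42 ± 0.059 and 0.37 ± 0.059 (adjusted p 3.25e-06 and 1.48e-05). Rpa1 read 21520, 23970, 26950 and 22830 in untreated and 29390, 26280, 30230 and 28530 in MG132-treated wild-type cells, and 19920, 20800, 21520 and 19210 in untreated and 24220, 24610, 26990 and 26960 in MG132-treated CHOP-/- cells. The large subunit rose by 0.27 ± 0.063 in wild-type cells, where 1 untreated array reached into the treated range, and by 0.33 ± 0.063 in CHOP-/- cells without overlap (adjusted p 9.21e-04 and 1.02e-04). It was lower in untreated CHOP-/- cells (log2 -0.22 ± 0.063, adjusted p = 0.00507).

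Both enzymes that finish Okazaki fragments were called lower with MG132 in wild-type and neither in CHOP-/- cells. The shares called lower were 100% and 0% of these 2 genes, against 36.9% and 36.8% of all tested genes. Both wild-type calls were lost after centring on the tested genes, where Lig1 turned to 0.0070 and Fen1 to -0.094. The difference between responses did not pass for Lig1 (0.18, adjusted p = 0.144) or Fen1 (0.22, adjusted p = 0.0729), though Fen1 passed after quantile normalisation (0.21). Fen1 read 8395, 8310, 8466 and 8154 in untreated and 7731, 6526, 6920 and 6042 in MG132-treated wild-type cells, and 9810, 9768, 10380 and 9761 in untreated and 10220, 8667, 9021 and 9687 in MG132-treated CHOP-/- cells. Fen1, the flap nuclease, had its lowest 4 arrays in treated wild-type cells and was higher on every CHOP-/- array than on every wild-type array of the same treatment. MG132 moved it by -0.30 ± 0.062 in wild-type (adjusted p = 2.88e-04) and -0.082 ± 0.062 in CHOP-/- cells (adjusted p = 0.264), and the genotypes differed by 0.25 ± 0.062 untreated and 0.47 ± 0.062 treated (adjusted p 0.00167 and 1.75e-06). Lig1 read 5698, 6069, 5121 and 5855 in untreated and 4556, 5052, 4868 and 5361 in MG132-treated wild-type cells, and 4325, 5041, 4437 and 4940 in untreated and 4422, 4611, 4687 and 4749 in MG132-treated CHOP-/- cells. DNA ligase 1 overlapped between treatments in both genotypes, at -0.20 ± 0.062 and -0.019 ± 0.062 (adjusted p 0.00949 and 0.814), and untreated CHOP-/- cells were lower (log2 -0.28 ± 0.062, adjusted p = 7.49e-04).

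Nucleotide supply held the gene that moved most. With MG132, 27.2% of all tested genes were higher and 36.9% lower in wild-type cells, and 25.7% and 36.8% in CHOP-/- cells. Of the 5 nucleotide supply enzymes, none was higher and 3 (60%) were lower in each genotype. In wild-type cells these were Tk1, Dut and Tyms, and the Tyms call is in doubt, since its other probe set above background gave 0.36 and the call was lost after quantile normalisation and after centring on the tested genes. The latter gave 2 higher (Rrm1 and Rrm2) and 2 lower in wild-type cells, and 1 higher and 2 lower in CHOP-/- cells. Tk1 read 8006, 9080, 9429 and 8659 in untreated and 2267, 2091, 2125 and 2196 in MG132-treated wild-type cells, and 8538, 8348, 8613 and 8218 in untreated and 3380, 3583, 3380 and 3694 in MG132-treated CHOP-/- cells. The means were 8793 ± 612 and 2170 ± 78.3 (SD, n = 4) in wild-type and 8429 ± 179 and 3510 ± 156 in CHOP-/- cells. All 8 treated arrays lay below all 8 untreated arrays, and treated wild-type arrays, at 2091 to 2267, were all below treated CHOP-/- arrays, at 3380 to 3694. Tk1 fell, with log2 differences of -2.01 ± 0.051 in wild-type and -1.26 ± 0.051 in CHOP-/- cells (adjusted p 2.29e-17 and 3.33e-14), the responses differed by 0.75 ± 0.072 (adjusted p = 2.39e-07), and untreated cells differed by -0.059 ± 0.051 (adjusted p = 0.351). Dut read 8292, 8540, 8223 and 8132 in untreated and 6677, 6435, 6053 and 6345 in MG132-treated wild-type cells, and 10050, 10450, 10490 and 10520 in untreated and 7144, 6461, 6925 and 6677 in MG132-treated CHOP-/- cells. Dut, which removes dUTP, fell without overlap, at log2 -0.38 ± 0.043 and -0.61 ± 0.043 (adjusted p 1.39e-07 and 1.49e-10) from an untreated level that was higher in CHOP-/- cells by 0.32 ± 0.043 (adjusted p = 1.98e-06). Its other probe set gave -0.099 in wild-type cells (adjusted p = 0.409).

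Rrm2 read 20400, 19140, 21770 and 17960 in untreated and 19870, 19280, 21230 and 20000 in MG132-treated wild-type cells, and 19200, 18940, 19620 and 17980 in untreated and 16390, 15520, 17790 and 15680 in MG132-treated CHOP-/- cells. Rrm2, the small subunit of ribonucleotide reductase, was lowest in treated CHOP-/- cells, which overlapped no other group. It fell there (log2 -0.21 ± 0.057, adjusted p = 0.00257), a call lost after centring on the tested genes, and differed by 0.023 ± 0.057 in wild-type cells (adjusted p = 0.742). Rrm1, the large subunit, passed in no comparison, with MG132 differences of 0.016 and 0.058. Tyms read 273.5, 251.9, 270.9 and 251.6 in untreated and 168.5, 167.1, 230 and 275.3 in MG132-treated wild-type cells, and 393.2, 403.4, 389.3 and 367.8 in untreated and 298, 356.7, 325.8 and 387.1 in MG132-treated CHOP-/- cells. Thymidylate synthase, which makes dTMP, read higher in CHOP-/- cells at both treatments, by 0.54 ± 0.14 and 0.68 ± 0.14 (adjusted p 0.00256 and 2.77e-04). That gene is uncertain, because its other probe set above background gave -0.31 and -0.65 and the average over all its probe sets -0.055 and -0.20.

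The response to MG132 differed between genotypes, by a test of the difference itself, for 17 of the 46 genes: 8 were higher in CHOP-/- than in wild-type cells (17.4%, against 14.2% of all tested genes) and 9 lower (19.6%, against 14.1%). The median of the 46 was 0.016, against -0.0016. The 4 largest positive differences were those of Tk1, Pole2, Pola2 and Gins1, genes that fell in wild-type cells and in CHOP-/- cells fell less, were not called or, for Pola2, rose, with Cdc7, Cdc6, Cdt1 and Dbf4 after them. The 9 negative differences were those of Orc2, Orc3, Orc4, Orc5, Gins3, Gins4, Rfc3, Rrm2 and Dut, from -0.51 for Gins3 to -0.20 for Rfc3. Centring on the median of all probe sets, which moved the median of all tested genes to 0.092, kept the 8 positive calls and lost all 9 negative ones, whose values stayed negative, from -0.41 for Gins3 to -0.11 for Rfc3. All 9 kept their call under quantile normalisation and after centring on the tested genes, and the latter lost the positive call of Cdt1 and added lower calls for Rfc4 and Rfc5. The Rfc3 call (adjusted p = 0.0471) was also lost without any 1 of 10 of the 16 arrays, where Rfc3 gave -0.16 to -0.21 with adjusted p of 0.0529 to 0.111. Both responses enter this difference and the genotype comparisons, so these are not independent of each other.

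Untreated CHOP-/- cells had more of 17 genes (37%, against 28.6% of all tested genes called higher) and less of 7 (15.2%, against 26.9%) than untreated wild-type cells, with a median of 0.05 against 0.01. Gins3 and Gins2 had the largest positive differences, followed by Cdt1 when the doubtful Tyms is set aside, and Prim2, Lig1 and Mcm6 the largest negative ones. In treated cells 16 were higher (34.8%, against 30.7%) and 11 lower (23.9%, against 28.1%), with a median of 0.09 against 0.021. There the 8 genes at least 0.5 higher on the log2 scale were Gins2, Cdt1, Tk1, Tyms, Cdc7, Gins1, Pola2 and Pole2, and none was that much lower. Of these Tyms is in doubt, since its other probe set above background gave -0.65. Of all tested genes, 55.6% were called untreated and 58.8% with MG132. Arrays did not overlap for 21 of the 24 genes called untreated (87.5%, against 85.6% of all genes called) and for 23 of the 27 called with MG132 (85.2%, against 87.4%). Centring on all probe sets gave 15 higher and 4 lower untreated, and 24 higher and 4 lower with MG132. Among all 11451 tested genes it gave 2814 higher and 2642 lower untreated, and 4036 and 2330 with MG132. The calls of Orc3, Gins4, Prim1, Prim2, Rfc4, Rfc5 and Rpa1 in treated cells were lost after this centring. Averaging in dim probe sets left 0.13 for Gins1 (adjusted p = 0.273) and 0.29 for Pola2 (adjusted p = 0.235) in treated cells.

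**Figure D5:**
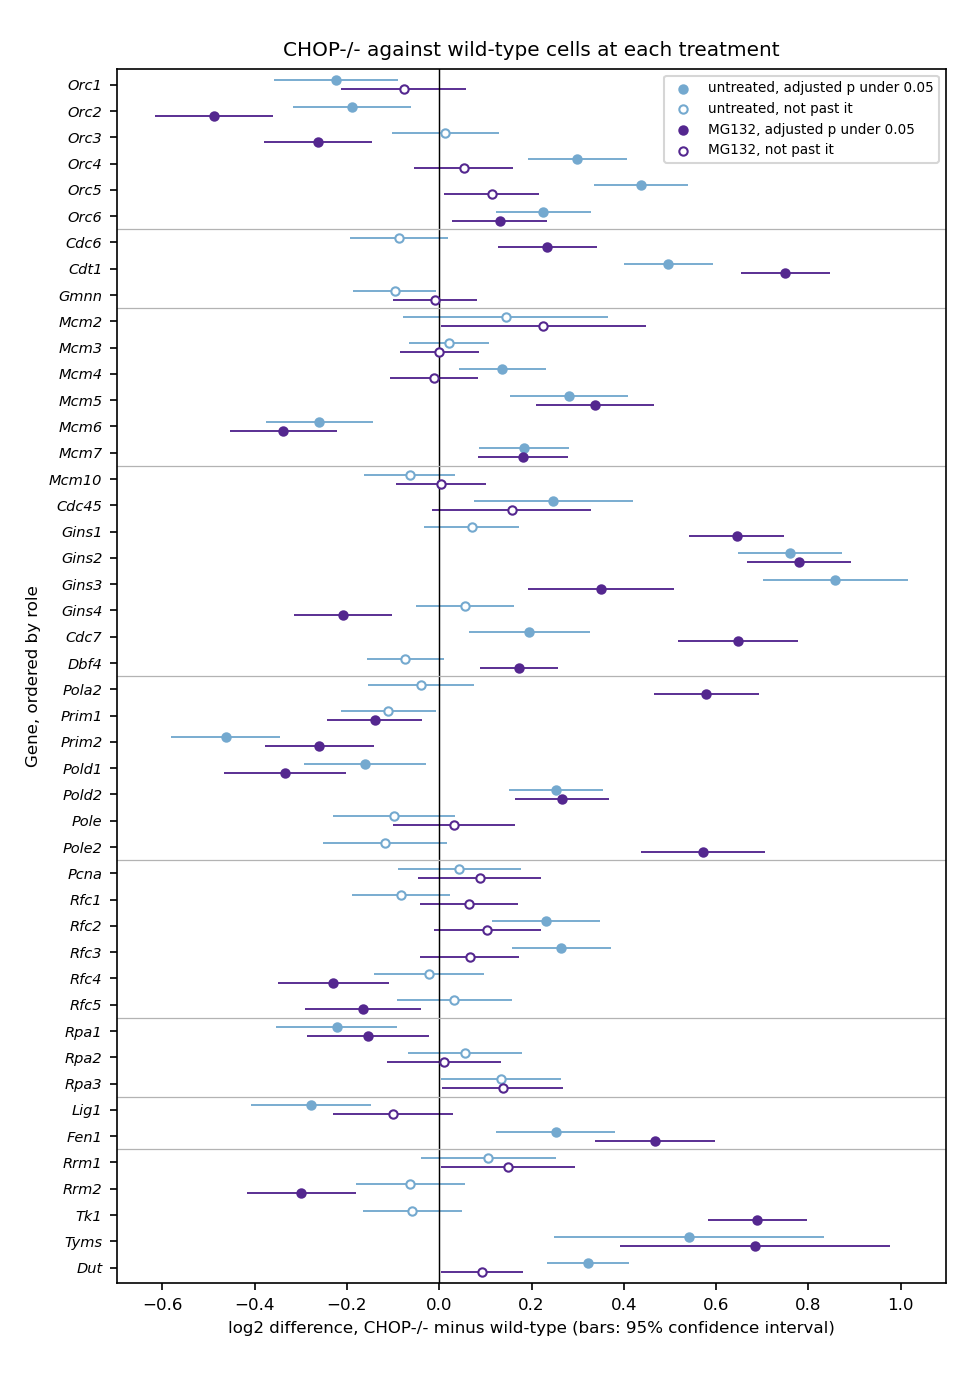
Log2 difference of CHOP-/- minus wild-type cells for each gene, untreated (light blue) and with MG132 (purple), with 95% confidence intervals and filled points where the adjusted p was under 0.05. Gins1, Pola2, Pole2 and Tk1 lie near 0 untreated and above 0.5 with MG132, and Gins2 lies above 0.5 in both. Several points below 0 with MG132, such as Orc3, Gins4 and Rfc4, were not called after centring on all probe sets.

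Genes with and without an E2F word in the promoter window were called in both directions. With MG132 in wild-type cells, 5 of the 13 genes with a word were higher and 3 lower (median 0.08), against 9 and 10 of the 25 genes with a window and no word (median 0.016). In CHOP-/- cells the counts were 6 and 3 of 13 (median 0.045) against 10 and 6 of 25 (median 0.093). Over all tested genes, 27.2% were higher and 36.9% lower in wild-type cells (median -0.07), and 25.7% and 36.8% in CHOP-/- cells (median -0.074). No test was made on the counts by word.

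Other genes of the same pathways came from lists that hold none of the 46. Of 32 tested genes of the fork and of chromatin assembly, 10 were higher and 13 lower in wild-type cells and 10 and 10 in CHOP-/- cells. The wild-type shares, 31.2% and 40.6%, are near the 27.2% and 36.9% of all tested genes, and the CHOP-/- shares were 31.2% each against 25.7% and 36.8%. Rnaseh2c, a subunit of the ribonuclease that clears RNA from DNA, fell by 1.61 and 1.31 on the log2 scale, and the chromatin assembly gene Chaf1b rose by 0.63 and 0.81. Of 28 other nucleotide synthesis genes, 9 were higher and 13 lower in wild-type and 10 and 13 in CHOP-/- cells (32.1% and 46.4%, and 35.7% and 46.4%), with Mthfd2, a mitochondrial folate enzyme, higher by 1.06 and 0.74. Untreated CHOP-/- cells had more of 15 of these 28 and less of 4 (53.6% and 14.3%, against 28.6% and 26.9% of all tested genes), with Mthfd2 at 1.11. Of 22 regulators of the G1 to S transition, 4 were higher and 14 lower in wild-type and 8 and 11 in CHOP-/- cells (18.2% and 63.6%, and 36.4% and 50%). The CDK inhibitor gene Cdkn1a rose by 1.34 and 1.00, and Skp2, which targets CDK inhibitors for degradation, fell by 0.52 and 0.81.

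Another list of cell cycle genes held 26 tested mitotic genes. In wild-type cells 4 of those were higher and 17 lower (15.4% and 65.4%, against 27.2% and 36.9% of all tested genes). The median was -0.32, against 0.017 for the 46 replication genes and -0.07 for all tested genes. In CHOP-/- cells 8 were higher and 11 lower (30.8% and 42.3%, against 25.7% and 36.8%), with a median of -0.069 against 0.074 and -0.074. The difference between responses was called higher in CHOP-/- cells for 11 of 26 mitotic genes and lower for none (42.3% and 0%). For the 46 replication genes the counts were 8 and 9 (17.4% and 19.6%), and 14.2% and 14.1% of all tested genes were called. Among the mitotic genes, Kif2c, Birc5, Bub1b and Kif23 had the smallest adjusted p, with differences of 0.62, 0.59, 0.55 and 0.51. These genes serve chromosome segregation and division. After centring on the tested genes the wild-type median was -0.12 for the mitotic and 0.22 for the replication genes. No test was made of the difference between the lists.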

How the data were processed

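RNA from 16 plates, 4 per group, was hybridised to Affymetrix expression arrays. The deposited values are linear signal intensities, computed by the authors with MAS5 per the submitters' processing notes (version: not given in the sources used here). In the deposited intensity values the mean, leaving out the top and bottom 2%, is 1000 on every array. Of 45101 probe sets, 64 controls were left out, 34945 name 1 gene, 932 several and 9160 none, by the platform table, and 34741 were matched to RefSeq by Entrez ID. Each gene was read from its brightest single-gene probe set and tested if above the array median on at least 4 arrays, which left 11451 genes. The scale was log2(signal + 16), and arrays were not normalised again, so folds of dim genes are understated. The test was limma 3.58.1 in R 4.3.3 (lmFit and eBayes with a mean-variance trend, 1 mean per group, 12 residual degrees of freedom), with Benjamini-Hochberg adjustment over all tested genes and a threshold of 0.05. The script was tested on simulated data. Unless said otherwise, a value after ± beside a log2 difference is the limma standard error. Values on every array are given for genes called with a log2 difference of at least 0.5 in any comparison and for the 2 with the smallest adjusted p in each role and comparison, and the other genes by ranges. Of each further list, up to 4 genes with the smallest adjusted p in each comparison could be named. Members, lists and rule were chosen with earlier results of these data known. Alternatives were other scalings, pseudocounts, filters, probe set rules, a fit without the trend, a replicate block and leaving out each array. Array number, 4 per group, limits the precision.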

Additional observations from a re-analysis of the deposited data

Results flagged for a closer look

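Across the 46 genes and 4 groups, 184 sets of 4 arrays were looked at for 1 array far from the other 3, by a limit that chance passes in about 9.2 of them, and 17 passed. In untreated wild-type cells the distant arrays read 12050 for Cdt1 (others 10760 to 10900) and 17250 for Mcm5 (others 15050 to 15220), both on replicate 3, and 3185 for Gins1 on replicate 4 (others 3444 to 3494). In treated wild-type cells replicate 3 read 1526 for Orc1 (others 1689 to 1720), 4336 for Cdc6 (others 4136 to 4167) and 5090 for Pold2 (others 5602 to 5701). There, replicate 1 read 2250 for Pold1 (others 1934 to 1973) and replicate 2 read 2633 for Pole (others 2962 to 2974). In untreated CHOP-/- cells the distant arrays read 11930 for Dbf4 (others 11520 to 11550) and 3391 for Pole2 (others 3635 to 3656) on replicate 4. In that group 3056 for Pola2 (others 2598 to 2655) came from replicate 2, 10380 for Fen1 (others 9761 to 9810) from replicate 3 and 10050 for Dut (others 10450 to 10520) from replicate 1. In treated CHOP-/- cells replicate 3 read 1643 for Orc3 (others 1772 to 1786) and 2527 for Cdc45 (others 2920 to 2983), and replicate 2 read 7312 for Gins4 (others 7647 to 7694) and 5125 for Rpa2 (others 5461 to 5501).

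The response to MG132 differed between genotypes, by limma's interaction term after Benjamini-Hochberg adjustment, for 17 of the 46 genes. Higher responses in CHOP-/- cells made up 17.4% of the 46 and lower ones 19.6%, against 14.2% and 14.1% of all tested genes. On the log2 scale the CHOP-/- response minus the wild-type response was 0.748 for Tk1, 0.689 for Pole2, 0.618 for Pola2, 0.574 for Gins1, 0.452 for Cdc7, 0.322 for Cdc6, 0.253 for Cdt1 and 0.247 for Dbf4. It was -0.198 for Rfc3, -0.230 for Dut, -0.237 for Rrm2, -0.246 for Orc4, -0.264 for Gins4, -0.276 for Orc3, -0.300 for Orc2, -0.324 for Orc5 and -0.508 for Gins3, values that stayed called under quantile normalisation and after centring on the tested genes. After centring on all probe sets these 9 were negative and not called, with -0.414 for Gins3.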

How the results depend on the processing

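Scaling and the choice of probe set both moved results. The median log2 difference of the 46 genes, in the order MG132 in wild-type, MG132 in CHOP-/-, and difference of responses, was -0.0762, -0.0179 and -0.0092 after quantile normalisation and -0.0328, 0.1173 and 0.1094 after centring each array over all probe sets. The latter also gave a median of 0.1844 between treated genotypes, 0 genes with a lower response in CHOP-/- cells, and 4 lower genes between genotypes at each treatment. Among all tested genes it gave 715 with a lower response, against 1616 at the deposited scale. Between genotypes it gave 2642 lower untreated and 2330 with MG132. Centring over the tested genes, chosen after seeing the data, gave 28 higher and 10 lower genes (median 0.2207) in wild-type cells with MG132, 7 lower (median 0.2191) in CHOP-/- cells, a median of -0.0422 for the difference of responses, and 4 lower genes (median 0.1206) between untreated genotypes. Among all 11451 tested genes this centring gave 4582 higher and 2860 lower in wild-type cells and 3167 lower in CHOP-/- cells. Between untreated genotypes 2505 of all tested genes were lower. Under the same centring Lig1 in wild-type cells turned to 0.0070 and Mcm6 in CHOP-/- cells to 0.0052. Averaging all probe sets gave medians of 0.0735, 0.0227 and -0.0246, and 0.0013 between treated genotypes, and turned Tyms to -0.0550 untreated and -0.2000 treated. Without suffixed probe sets, which left 41 of the genes, the medians were -0.0385 in wild-type cells, -0.0296 for the difference of responses and -0.0092 between treated genotypes. Leaving out 1 array gave medians of -0.0045 to 0.0476 in wild-type cells, with 0.0467 without untreated wild-type replicate 1 and 0.0476 without replicate 3, and of 0.0173 to 0.071 between untreated genotypes. Averaging all probe sets changed 12 calls between untreated genotypes, against 5 or 6 under the 3 other scalings, and centring over the tested genes changed 19 calls in wild-type cells with MG132, against 6 under averaging. The cause was not tested.

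Of the other values for single genes, 2639 kept a call with its direction or stayed uncalled, whatever the sign of the uncalled ones. A call was lost for 60 and gained for 27, and 4 changed sign with a call before or after. The labels do not say what a replicate number shares. Correlations of deviations between plates of the same number ran from -0.0696 to 0.161. Their mean was 0.046, against -0.015 for plates of other numbers, which does not settle whether the numbers pair the plates. With the replicate block the genes called higher and lower were 16 and 16 in wild-type cells, 19 and 12 in CHOP-/- cells, 9 and 10 for the difference of responses, 19 and 8 between untreated and 19 and 11 between treated genotypes. The counts over all tested genes were 3175 and 4279, 3031 and 4297, 1756 and 1730, 3352 and 3168, and 3613 and 3282. All 46 genes passed the filter used, though some second probe sets were dim. The probe set used for Tyms was dim too, with group means from 210.2 to 388.4 against array medians of 90.11 to 113.4. Passing the filter therefore does not show that low signal was no limit for that gene.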
